A study of Rattus norvegicus with 15 samples.

Results

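Dbp, Tef, Hlf, Nfil3, Bhlhe40 and Bhlhe41 encode transcription factors, and Usp2 a deubiquitinating enzyme, through which the circadian clock of a cell reaches other genes. They were followed here in a midbrain region, the ventral tegmental area, in rats given ethanol. The array annotation gave 13 probe sets a single symbol among these 7 genes, of 14217 genes named in that way. Of the 13 probe sets, 12 passed the filter on dim values, and every gene had at least 1 that did. The genes were chosen by their log2 values in these same 7 ethanol and 8 water arrays being known, so their differences between the groups are given below as a description. No p-value is printed for them, and how many of them passed an array-wide threshold is stated without reading anything from it. RNA came from 7 rats labelled as ethanol treated and 8 age-matched rats that had water, each measured on its own array. The title of the study names alcohol-preferring (P) rats and loss-of-control drinking, and both groups are taken to be of that line only as far as the title says so. Strain, sex, age, litter and the hour of death are not given per animal in the sources used here, and ethanol animal 3 was not analysed here.

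The clock is a loop in which the transcription factors BMAL1 and CLOCK switch on genes through a DNA element called the E-box, among them the genes of their own inhibitors. Dbp is among the targets switched on in this way. DBP, TEF and HLF, the proline and acidic amino acid-rich (PAR) leucine zipper factors, bind a second element, the D-box, and activate transcription from it. NFIL3, also called E4BP4, binds the same element and represses. BHLHE40 and BHLHE41, also called DEC1 and DEC2, bind E-boxes and repress there, which opposes BMAL1 and CLOCK. In mice that lack all 3 PAR factors, epileptic seizures occur. The ventral tegmental area holds dopamine neurons that project to the nucleus accumbens and the cortex.

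Promoter windows were available from RefSeq (build GRCr8) for 6 of the 7 genes, all but Hlf. They show which of these members carry the elements of this circuit near an annotated start. Each window held 300 bases, from 250 before the start to 50 after it. Both strands were searched for the D-box (TTATGTAA or TTACGTAA), the E-box (CACGTG), the cyclic AMP response element (TGACGTCA) and its core (TGACG), which the full element contains. The E-box was found in 3 of the 6 windows, those of Bhlhe40, Bhlhe41 and Tef, against 6.42% of the 33469 windows in the table. The GC content of these 3 windows was 65.7%, 72.7% and 67.7%, against a median of 51.7% over all windows. The part of base composition in the E-box share was not tested. The D-box letters were in 0 of the 6 and in 1.01% of all windows, and the full cyclic AMP element was in 0 of the 6 and in 1.83% of all. The core was in 1 of the 6, Nfil3, and in 21.2% of all windows. The Dbp window held none of the searched elements. A window covers only 300 bases, so absence of an element from it says nothing about sites elsewhere in or near a gene. For Bhlhe41, Tef and Usp2 the annotated gene extends upstream of the start used, so each has another start that was not searched. Stretches of 40 bases around the E-boxes (capitals) are shown on the strand of the gene because this is the element through which the clock loop works, with the start of the element 220 bases before the gene start in Bhlhe40 (chr4:143174213-143174252, plus strand), 48 in Bhlhe41 (chr4:180569381-180569420, minus strand) and 198 in Tef (chr7:115206612-115206651, plus strand).
Bhlhe40: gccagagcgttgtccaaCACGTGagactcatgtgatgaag
Bhlhe41: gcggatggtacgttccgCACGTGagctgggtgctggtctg
Tef: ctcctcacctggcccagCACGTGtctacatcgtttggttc

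The whole windows of Nfil3 (chr17:12432126-12432425, plus strand) and Usp2 (chr8:53310620-53310919, plus strand) are shown because these genes had the largest differences between the groups. Capitals in Nfil3 mark the core of the cyclic AMP element, which starts 9 bases before the gene start. None of the searched elements was in the Usp2 window. The GC content was 48.7% in Nfil3 and 51.7% in Usp2, against a median of 51.7% over all windows.
Nfil3: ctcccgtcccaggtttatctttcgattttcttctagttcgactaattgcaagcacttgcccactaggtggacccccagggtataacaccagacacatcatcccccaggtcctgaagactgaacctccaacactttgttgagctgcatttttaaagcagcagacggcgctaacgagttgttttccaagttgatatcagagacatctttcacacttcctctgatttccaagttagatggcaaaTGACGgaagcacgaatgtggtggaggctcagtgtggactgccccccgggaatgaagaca
Usp2: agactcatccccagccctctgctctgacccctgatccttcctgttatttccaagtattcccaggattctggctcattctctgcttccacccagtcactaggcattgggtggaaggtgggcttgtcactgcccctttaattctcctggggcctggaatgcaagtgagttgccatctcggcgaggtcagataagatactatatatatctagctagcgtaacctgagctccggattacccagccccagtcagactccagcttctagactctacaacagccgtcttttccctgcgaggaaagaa

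Of the 12 member probe sets above the filter, 3 passed the array-wide threshold, an adjusted p below 0.05 over all probe sets by limma, a linear model that shares its variance estimate across probe sets. These 3 stood for Nfil3 and Usp2 and all were lower in ethanol rats. Over the whole array 0.929% of the 18625 tested probe sets passed, 0.542% lower and 0.387% higher. Because the members were chosen with this comparison known, nothing is read from their count. In a tissue sample, fewer cells of a type and less RNA per cell cannot be told apart. The median difference of the 12 was 0.003 log2 units, against 0.006 over all tested probe sets, and 6 of the 12 had a lower mean in ethanol rats. All values are log2 expression levels, and differences are ethanol minus water in log2 units with the standard error (SE) of the fit.

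Nfil3, the repressor at D-boxes, ranged from 7.53 to 8.03 in ethanol rats with a median of 7.86, and from 8.04 to 8.52 in water rats with a median of 8.27. The highest ethanol value, in rat 4, lay 0.013 below the lowest water value, in rat 8, so the groups did not overlap. Ethanol rats 1 and 7, at 7.53 and 7.61, were lowest. The means were 7.80 ± 0.18 in the 7 ethanol rats and 8.28 ± 0.14 in the 8 water rats (SD). The difference of -0.48 (SE 0.08) puts ethanol rats at 0.716 of the water level, and 0.263% of the tested probe sets differed by more. Nfil3 had a single probe set on the array, so no second one bears on this value. With each of the 15 arrays left out in turn, the difference was -0.52 to -0.44.

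Usp2 removes ubiquitin from proteins and acts on clock proteins such as PER1 and CRY1 in mice. It had 2 probe sets, and the mean of each was lower in ethanol rats. The first, 1375549_at, ranged from 7.06 to 7.43 in ethanol rats with a median of 7.25, and from 7.43 to 7.78 in water rats with a median of 7.64. The groups did not overlap, but ethanol rat 6 and water rat 8 were only 0.0053 log2 units apart. Its means were 7.26 ± 0.12 in the 7 ethanol rats and 7.63 ± 0.13 in the 8 water rats (SD), a difference of -0.37 (SE 0.06).

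The second Usp2 probe set, 1387703_a_at, ranged from 8.01 to 8.55 in ethanol rats with a median of 8.24, and from 8.44 to 9.08 in water rats with a median of 8.72. Here the groups overlapped: water rats 5 and 8, at 8.47 and 8.44, lay below the highest ethanol value, that of rat 4. The means were 8.24 ± 0.18 in the 7 ethanol rats and 8.72 ± 0.22 in the 8 water rats (SD), and the difference was -0.48 (SE 0.10), or 0.716 of the water level. It no longer passed the threshold when ethanol rat 1, 7 or 8, or water rat 2 or 3, was left out, at differences of -0.47 to -0.44. The difference of 1375549_at was -0.40 to -0.34 over the 15 fits without 1 rat. In 2 member probe sets, Nfil3 and Usp2 1375549_at, the groups did not overlap, both lower in ethanol rats. The groups did not overlap in 0.623% of all tested probe sets, with 0.376% lower in ethanol rats.

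Dbp, the PAR factor gene that BMAL1 and CLOCK switch on, ranged from 10.94 to 11.03 in ethanol rats with a median of 10.98, and from 10.73 to 10.98 in water rats with a median of 10.85. All 7 ethanol rats lay above the water mean and 4 lay above every water rat, while water rat 7, at 10.98, was within the ethanol range. The means were 10.98 ± 0.03 in ethanol rats (SD, n = 7), against 10.86 ± 0.07 in water rats (SD, n = 8), a difference of 0.13 (SE 0.04) or 1.09-fold. Dbp varied little between rats of a group: its pooled SD of 0.06 was smaller than that of most probe sets, with 8.20% of those tested below it.

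Tef and Hlf are the other PAR factors. The 3 Tef probe sets differed by -0.03 (SE 0.06), 0.04 (SE 0.06) and 0.01 (SE 0.04), and the groups overlapped in each. In 1390819_at, values ranged from 10.16 to 10.40 in ethanol rats with a median of 10.26, and from 10.14 to 10.39 in water rats with a median of 10.25. Those of 1369919_at spread from 7.18 to 7.70 in ethanol rats and from 7.37 to 7.57 in water rats, an SD of 0.16 in ethanol against 0.06 in water rats.

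Hlf had 4 probe sets. One of them, 1384811_at, averaged 4.65, below the filter at 6.94, and was not tested. The other 3 differed by -0.01 (SE 0.05), 0.02 (SE 0.07) and -0.07 (SE 0.07). The probe set 1386641_at ranged from 10.45 to 10.82 in ethanol rats with a median of 10.77, and from 10.61 to 10.97 in water rats with a median of 10.69. In that probe set 3 water rats lay at 10.92 or above and the other 5 at 10.70 or below, and no ethanol rat was above 10.82.

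Over all rats, Bhlhe41 had the larger of the differences between the E-box repressors. It ranged from 12.39 to 12.63 in ethanol rats with a median of 12.53, and from 12.22 to 12.61 in water rats with a median of 12.38. All 7 ethanol rats were above the water mean, and water rat 5, at 12.61, lay above all of them except rat 2. Its mean was 12.53 ± 0.08 in the 7 ethanol rats and 12.38 ± 0.13 in the 8 water rats (SD), a difference of 0.15 (SE 0.05). Water rats 7 and 8, at 12.24 and 12.22, were lowest. Without these 2 rats, a choice made after seeing the data, the difference was 0.09 (SE 0.05). That of Bhlhe40 was then 0.12 (SE 0.05).

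Bhlhe40 ranged from 8.65 to 8.74 in ethanol rats with a median of 8.68, and from 8.39 to 8.83 in water rats with a median of 8.63. All 7 ethanol rats lay above the water mean and inside the water range. The means were 8.68 in ethanol and 8.60 in water rats, a difference of 0.08 (SE 0.06). The SD was 0.03 in ethanol and 0.14 in water rats, a ratio of 0.234, and 0.483% of the tested probe sets had a smaller ratio, against a median ratio of 0.821. Water rats 1 and 5, at 8.39 and 8.41, and water rat 7, at 8.83, set the wide water range.

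**Figure D1:**
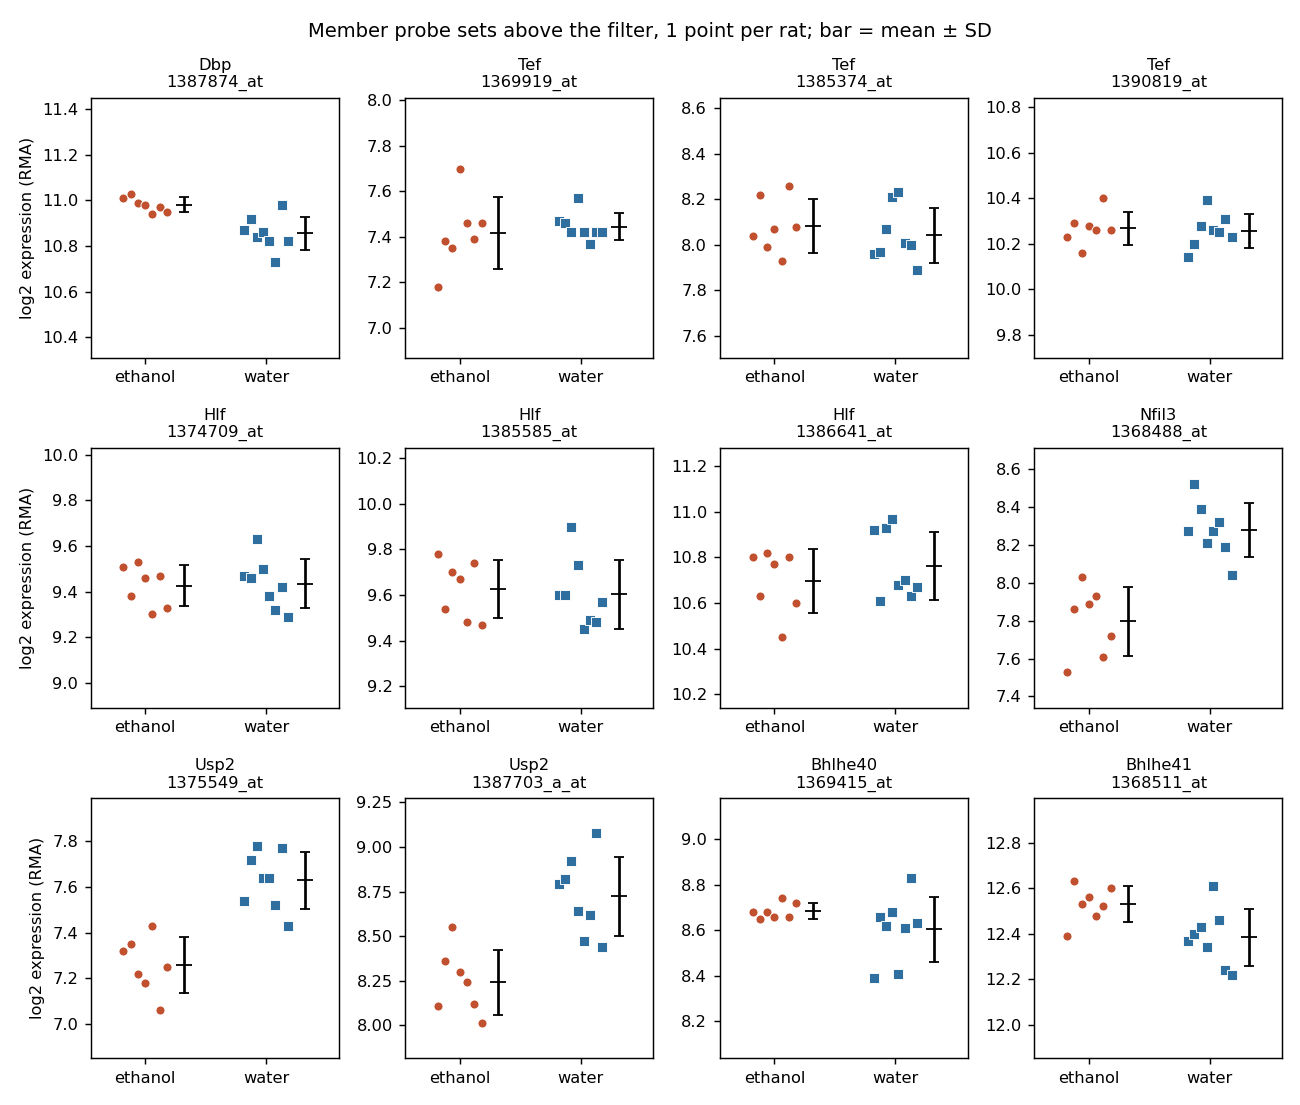
Log2 expression (y axis, RMA values) of the 12 member probe sets above the filter in ethanol rats (circles, n = 7) and water rats (squares, n = 8), with the group mean ± SD as a bar beside the points. The Nfil3 and Usp2 1375549_at points of the groups do not overlap, those of Tef and Hlf overlap widely, and the ethanol points of Bhlhe40 and Dbp are tightly packed.

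The core clock genes were compared as the loop that drives these outputs. Their list and those of the next paragraphs were chosen with earlier results of these data known. Of 19 listed genes, 15 had a probe set above the filter. By limma with Benjamini-Hochberg adjustment over all probe sets, 1 rose, 0 fell and 14 did not pass, and the median difference was -0.02. The gene that passed was Nr1d1, which encodes the repressor REV-ERB alpha that acts on Bmal1 and on Nfil3. It ranged from 8.10 to 8.60 in ethanol rats with a median of 8.36, and from 7.71 to 8.08 in water rats with a median of 8.03 (difference 0.35, SE 0.08, adjusted p = 0.0477). The groups did not overlap in Nr1d1, as in Nfil3, but the ethanol rats were the higher ones. With 1 rat left out, the difference of Nr1d1 was 0.31 to 0.39, and it passed the threshold in 2 of 15 fits, those without ethanol rat 1 or 5 (adjusted p up to 0.114 by limma in the others).

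Next in order of p came Cry1, which encodes an inhibitor of BMAL1 and CLOCK, with means of 9.29 ± 0.09 in the 7 ethanol rats and 9.48 ± 0.10 in the 8 water rats (SD), a difference of -0.19 with SE 0.05 and adjusted p = 0.0978 by limma. Nr1d2, the second REV-ERB gene, differed by 0.11 (SE 0.04) and Per3, a period gene, by 0.16 (SE 0.06). Their adjusted p-values by limma were 0.261 and 0.310. Bmal1 (-0.09, SE 0.08), Clock (-0.02, SE 0.05) and Npas2 (-0.11, SE 0.06), the activators of the loop, did not pass either.

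**Figure D2:**
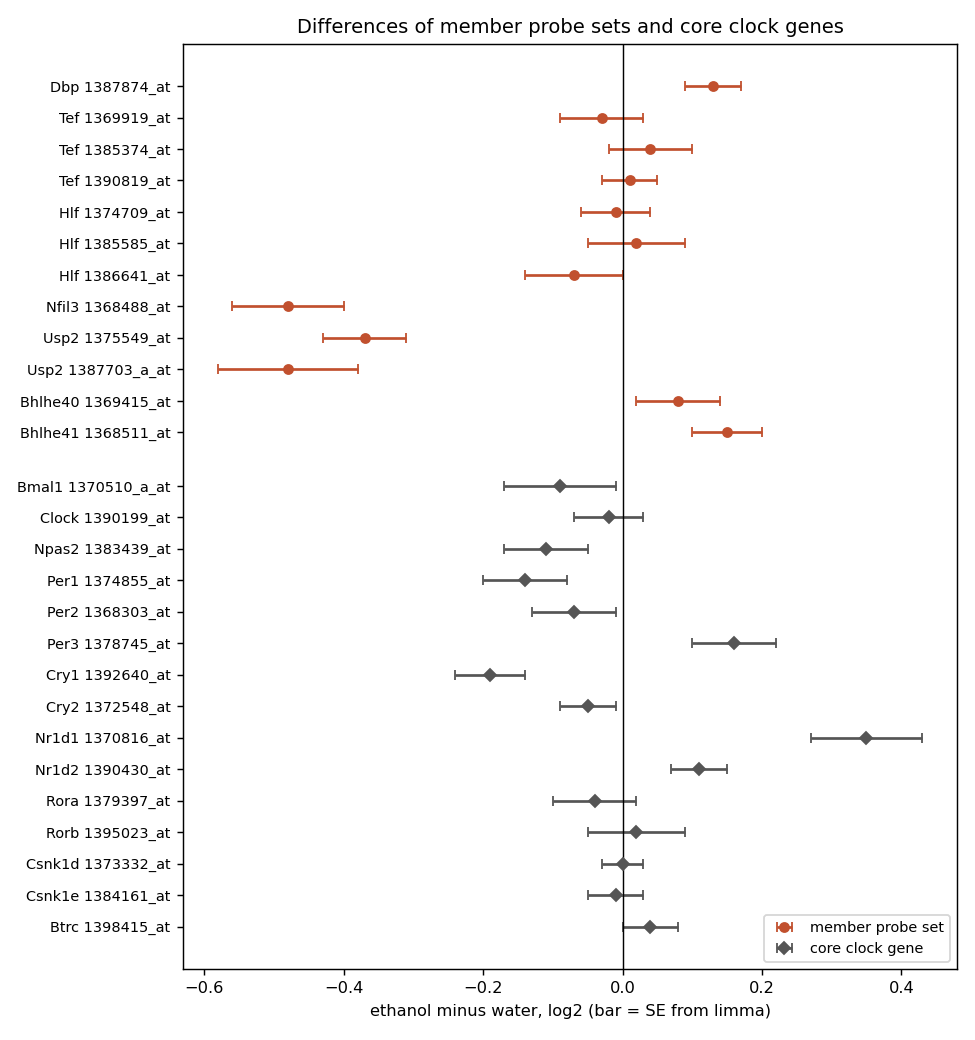
Difference between ethanol and water rats (x axis, log2 units) with its SE for the 12 member probe sets (circles) and for 1 probe set of each of the 15 core clock genes above the filter (diamonds). Nfil3 and both Usp2 probe sets lie between -0.48 and -0.37, and Nr1d1 stands at 0.35 on the opposite side.

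Genes linked to D-boxes or to rhythmic output by earlier work were read in the same fit. Of 12 genes linked to PAR factors, 10 were on the array and 5 passed the filter, and 0 passed the test. The 4 smallest p among these belonged to Bcl6, a repressor (difference -0.16, SE 0.06, adjusted p = 0.30 by limma), Wee1, a kinase that holds back cell division (-0.07), Alas1, the first enzyme of haem synthesis (-0.16), and Por, the electron donor of cytochrome P450 enzymes (-0.01). Of 14 other rhythmic output genes above the filter, 0 rose and 2 fell. These were Tsc22d3 (-0.34, SE 0.05, adjusted p = 0.00201 by limma) and Klf9 (-0.29, SE 0.06, adjusted p = 0.0258 by limma), followed by Sgk1 (-0.63) and Dusp1 (-0.42), which did not pass. With 1 rat left out, Tsc22d3 passed in 15 of 15 fits and Klf9 in 10 of 15, not without ethanol rat 1, 6, 7 or 8 or water rat 2. These 4 genes are also in the corticosteroid list.

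Relatives of the members did not pass the test. Of 11 genes for other ubiquitin proteases and substrates linked to Usp2, 0 passed, with differences from -0.08 for Usp15 to 0.04 for Usp7 and a median of -0.02. Of 19 other leucine zipper and helix-loop-helix genes above the filter, 0 passed, with a median of -0.01. The smallest p in that list was that of Crem, a cyclic AMP responsive factor (-0.13, SE 0.04, adjusted p = 0.165 by limma). Cebpd and Cebpb, leucine zipper factors that also answer to corticosteroids, were at -0.17 and -0.13, and Hey2 was at 0.14.

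Other transcripts moved with the groups in the same rats. Because their lists were chosen with earlier results of these data known, the counts are a description and not independent support. Of 13 measured corticosteroid-induced genes, which include Per1, 5 fell and 0 rose (Tsc22d3, Klf9, Errfi1, Ddit4 and Gpd1), the median difference was -0.38, and the list mean of a rat lay between 10.28 and 10.62 in ethanol and between 10.53 and 11.06 in water rats. Of 12 oligodendrocyte and myelin genes 4 fell and 0 rose (Ugt8, Cldn11, Mal and Fa2h), with list means of 12.81 to 13.14 in ethanol and 13.06 to 13.52 in water rats. Of 13 microglial genes 4 rose and 0 fell (Tyrobp, Trem2, Ctss and Gpr34), with list means of 9.49 to 9.79 in ethanol and 9.15 to 9.55 in water rats. With 1 rat left out, Ddit4, Gpd1, Ugt8, Tyrobp, Trem2 and Gpr34 passed in 15 of 15 fits, Fa2h in 14 (not without ethanol rat 7), Mal in 6, Cldn11 in 4, and Errfi1 and Ctss in 3 each. Astrocyte, dopamine neuron, other neuron, and endothelial and mural lists had 0 of 8, 0 of 7, 0 of 7 and 0 of 8 genes past the threshold. Their median differences were -0.05, 0.16, 0.08 and 0.06, in that order. All 7 dopamine neuron genes had a higher mean in ethanol rats. Of 5 suprachiasmatic and hypothalamic markers above the filter, 0 passed. The dopamine transporter Slc6a3, from the dopamine neuron list, was at 14.66 ± 0.25 in the 7 ethanol rats and 14.51 ± 0.25 in the 8 water rats (SD). The mean gap between the 3' and 5' probe sets of 3 control transcripts, a sign of RNA integrity, was 0.99 to 1.15 in ethanol and 1.05 to 1.20 in water rats. The part of these transcripts in the differences of the members was not tested beyond the fits that follow.

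The differences of the members were also fitted with a list mean as a covariate, a choice made after seeing the data. The list means themselves differed between the groups, so such a fit also removes part of any difference the groups share with the list. With the corticosteroid list the difference of Nfil3 was -0.19 (SE 0.10), that of Usp2 1375549_at -0.25 (SE 0.10) and that of Usp2 1387703_a_at -0.26 (SE 0.15). With the myelin list they were -0.40, -0.35 and -0.50. With the microglial list they were -0.57, -0.33 and -0.34. Bhlhe41 was at 0.29 (SE 0.05) with the myelin list and at 0.33 (SE 0.07) with the corticosteroid list. With the microglial list it was at -0.06 (SE 0.05), so its direction rested on this choice.

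Differences between rats of the same group do not depend on the comparison the genes were chosen with, and they were used to ask whether the members varied together. For each gene the probe set with the highest mean was taken, each value was expressed as the deviation from its group mean, and arrays were permuted within the groups. Of the 21 pairs of members, 2 had an unadjusted permutation p below 0.05 and 0 passed after Benjamini-Hochberg adjustment. Pearson correlations ran from -0.55, between Bhlhe40 and Bhlhe41, to 0.60, between Dbp and Usp2. Dbp with Usp2 had r = 0.60 and rho = 0.59 (permutation p = 0.0271 and 0.0310, adjusted 0.326 and 0.365), and r = 0.51 without the 2 rats farthest from the median of Dbp. Nfil3 with Usp2 had r = 0.57 and rho = 0.56 (permutation p = 0.0310 and 0.0347, adjusted 0.326 and 0.365), and r = 0.57 without the 2 farthest rats. Within the ethanol rats alone the correlation of Nfil3 with Usp2 was 0.82, and within the water rats 0.36. Over the 15 rats, Dbp with Tef had r = 0.04, Dbp with Hlf 0.02 and Tef with Hlf 0.12. These values were not steady: Dbp with Hlf had r = 0.51 in ethanol and -0.15 in water rats, and Tef with Hlf had r = -0.39 without the 2 farthest rats.

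Against the core clock, 105 pairs of a member and a clock gene were tested. Of these, 9 had an unadjusted permutation p below 0.05 and 0 passed after adjustment (smallest adjusted p = 0.464). Hlf was in 4 of the 9: its r was 0.68 with Rorb, 0.59 with Cry1, 0.56 with Bmal1 and -0.61 with Cry2. The largest correlation, 0.77 between Bhlhe40 and Btrc, a subunit of the ligase that marks PER proteins for breakdown, was -0.04 in ethanol rats and 0.89 in water rats. Bhlhe41 with Btrc had r = -0.60 over all rats, 0.04 in ethanol rats and -0.80 in water rats. Nr1d1, which differed between the groups, had within-group correlations of 0.31 with Nfil3, 0.21 with Usp2 and -0.13 with Dbp.

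Probe sets of the same gene give a measure of how reliably these small differences between rats were read. The 3 Hlf pairs had r = 0.87, 0.78 and 0.81 (permutation p adjusted over 7 pairs = 0.00168, 0.00233 and 0.00224), with rho from 0.75 to 0.84. For Tef, 1385374_at and 1390819_at had r = 0.68 and rho = 0.74 (adjusted permutation p = 0.0130 and 0.00651), while the pairs with 1369919_at had r = 0.10 and 0.26. The Usp2 pair had r = 0.49 and rho = 0.50 (adjusted permutation p = 0.110 and 0.102), and r = 0.31 without the 2 farthest rats. The order of rats inside a group was thus shared by the 3 Hlf probe sets, and for Usp2 the shared order did not pass the test.

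Each member was also set against the list means of the cell types, against the corticosteroid list and against the first principal component of all tested probe sets, which carried 32.4% of the within-group variance and whose sign is arbitrary. Of these 56 pairs, added after seeing the data, 4 passed with an adjusted permutation p below 0.05. Bhlhe41 followed the microglial list (r = 0.86, rho = 0.76, adjusted permutation p = 0.0115 and 0.0451) and the myelin list (r = 0.84, rho = 0.74, adjusted permutation p = 0.0115 and 0.0451). In mice, Bhlhe40 and Bhlhe41 are needed to keep the identity of alveolar macrophages, the resident phagocytes of the lung. Within ethanol rats the correlations of Bhlhe41 were 0.83 with the microglial and 0.87 with the myelin list, and within water rats 0.88 and 0.84. Without water rat 5, which was high in Bhlhe41 and in both lists, the calls ended (adjusted permutation p = 0.0627 and 0.0675), and with any 1 rat left out r stayed between 0.81 and 0.90 and between 0.73 and 0.89. Without the 2 rats farthest on each list they were 0.76 and 0.63, with adjusted permutation p = 0.301 and 0.311.

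Nfil3 followed the corticosteroid list (r = 0.70, rho = 0.76, adjusted permutation p = 0.0437 and 0.0448). Without ethanol rat 1 and water rat 8, the farthest on that list, r was 0.52 and the call ended (adjusted permutation p = 0.436). The call also ended in 11 of 15 fits without 1 rat, at r from 0.62 to 0.77 over all 15 and an adjusted permutation p of up to 0.256. These were the fits without ethanol rat 1, 5 or 6, and those without any 1 of the water rats. With the same list Bhlhe41, whose mean was higher in ethanol rats, had r = 0.68 and rho = 0.69 (adjusted permutation p = 0.123 and 0.102), and Usp2 had r = 0.42. Bhlhe40 followed the first principal component (r = 0.78, rho = 0.79, adjusted permutation p = 0.0373 and 0.0448). That call ended when ethanol rat 6, or water rat 1, 2, 5, 6 or 7, was left out (adjusted permutation p up to 0.178), and r was 0.63 without the 2 farthest rats.

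**Figure D3:**
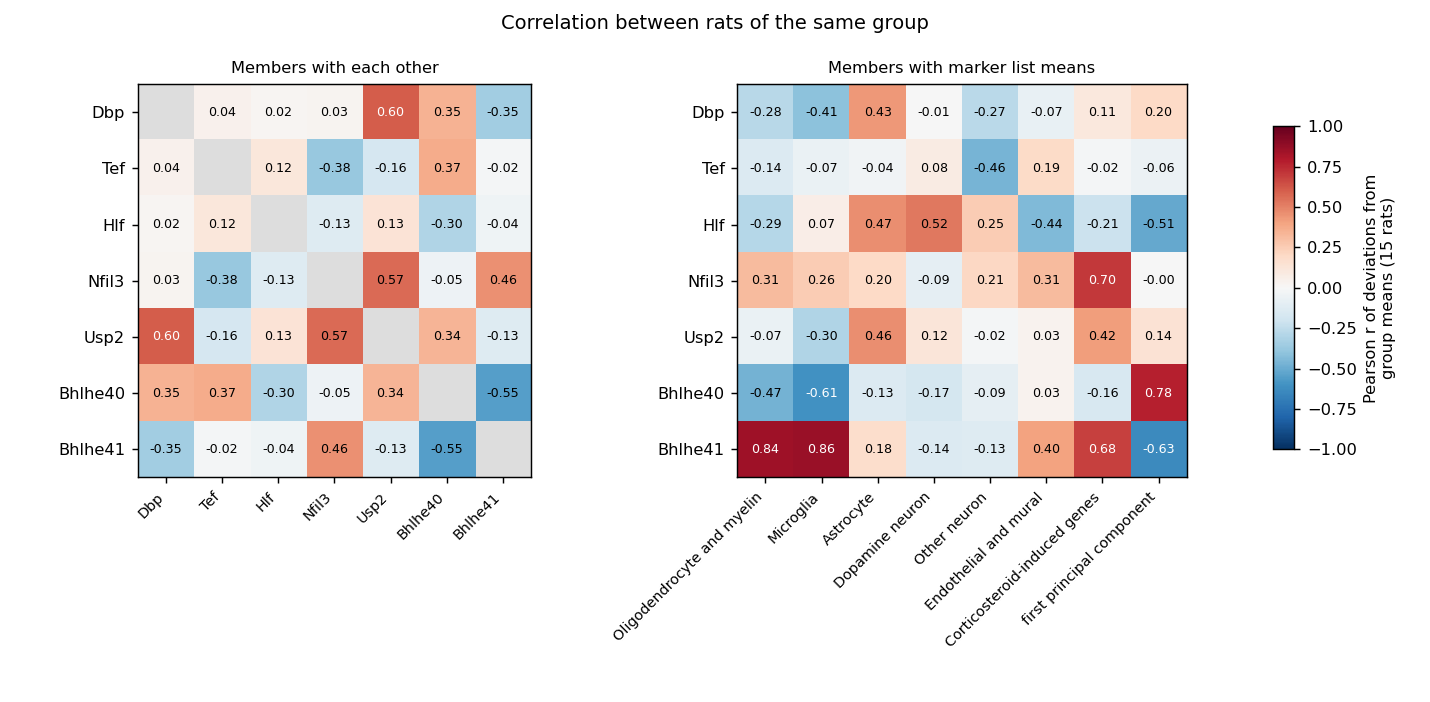
Pearson correlation over 15 rats of deviations from the group means, for the members with each other (left) and with the means of 7 gene lists and the first principal component (right), on a scale from -1 (blue) to 1 (red). The darkest cells are Bhlhe41 with the microglial (0.86) and myelin (0.84) lists, and the cells of Dbp, Tef and Hlf with each other are pale (0.02 to 0.12).

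**Figure D4:**
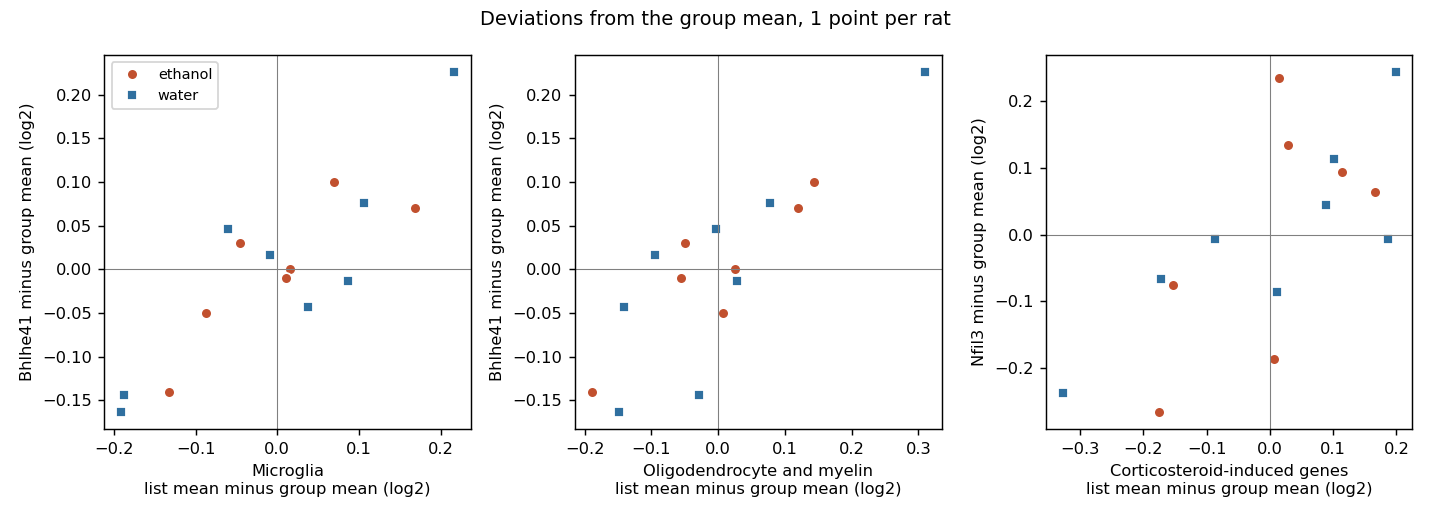
Deviation of Bhlhe41 from its group mean (log2 units, y axis) against that of the microglial and the myelin list mean, and of Nfil3 against that of the corticosteroid list mean, with ethanol rats as circles (n = 7) and water rats as squares (n = 8). Water rat 5 is the point at the upper right of both Bhlhe41 panels, and water rat 8 is the point farthest left in the Nfil3 panel.

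For each member, the genes most like it between rats were taken by Pearson correlation of the same deviations over 15 rats among 10183 other genes, as a description with no test. The ends of so many correlations over 15 rats can be high without any link between the genes. Each gene was read by its kept probe set with the highest mean. Usp2 was most like Slc1a1, the glutamate transporter of neurons (r = 0.89), Cpne9 (0.76) and Kifc2 (0.76), and least like Rnf146 (-0.80). Nfil3 was nearest to Prex2 (0.78), Bicra (0.77) and Mul1 (0.77), and opposite to Neil1, a DNA repair enzyme (-0.83). Dbp was nearest to Tex264 (0.87), Dglucy (0.80) and the lipoprotein receptor Lrp1 (0.78), and opposite to the kinase Tbk1 (-0.81). Hlf was nearest to Plcb1, a phospholipase of receptor signalling (0.89), and to Ppfia2 (0.88) and Lin7a (0.87), scaffold proteins of synapses, and opposite to Prkcz (-0.93). Tef was nearest to Dok3 (0.78), Hgh1 (0.74) and Wdr91 (0.73), and opposite to Thsd7a (-0.82). The strongest likenesses were those of Bhlhe41 to Rhbdd1 (0.96), Map4 (0.95) and Efcab14 (0.95), with Spats2 opposite (-0.94), and of Bhlhe40 to Zfyve9 (0.95), Miga1 (0.90) and Vsig10 (0.90), with Snx16 opposite (-0.94). With the first principal component Bhlhe40 had r = 0.78, Bhlhe41 -0.63 and Hlf -0.51, and Nfil3, Usp2, Dbp and Tef were between -0.06 and 0.20.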

How the data were processed

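RNA from the ventral tegmental area of 7 ethanol and 8 water rats was hybridised to Affymetrix rat arrays, 1 per rat, after labelling from 25 ng of total RNA in 2 amplification cycles, per the labels' protocols. The authors deposited log2 expression values from RMA, per the submitters' processing notes, which name no software version. RMA equalises the arrays' distributions, removes shifts common to most transcripts and compresses differences of dim probe sets.

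The table held 31099 probe sets, of which 57 were controls. GEO's platform annotation gave 20826 of the others 1 gene symbol, 436 several and 9780 none, and 20764 were found by Entrez number in RefSeq (GRCr8). Probe sets with a mean at or above the 40th percentile (6.94) were kept, which left 18625. The model was that of limma 3.58.1 (R 4.3.3), with lmFit and eBayes, two-sided and without covariates, with Benjamini-Hochberg adjustment over all of them. The fit and the permutation test were tested on simulated data. Correlations used two-sided permutation tests with 100000 resamples within groups.

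The members and the gene lists were chosen with earlier results of these data known. For lists, 1 probe set a gene was used, the kept one with the highest mean. Genes named from lists were those called and the 4 with the smallest p, and for likeness the 3 highest and the 1 lowest correlation, leaving out symbols that are only locus numbers. Genes beyond this rule (Clock, Bmal1, Npas2, Btrc, Rorb, Cry2, Slc6a3 and the cell type markers called) were picked once their values were known. Alternatives were other filters, array weights, a variance trend, median centring, a block for animal number, leaving out arrays and covariates. Nothing says that the rats came from separate litters, so p-values measure the spread between these rats. The number of arrays limits the precision.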

Additional observations from a re-analysis of the deposited data

How the results depend on the processing

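Nfil3 and both Usp2 probe sets kept a negative difference, and Dbp a positive one, under every alternative that gave them a value. The 3 member probe sets past the threshold were 1 with a replicate block for the animal number (Nfil3). They were 0 with a filter at the 60th percentile, which removes all 3 as too dim. As covariates, the microglial list left 1 (Nfil3) and the corticosteroid list 0. With the myelin list 2 passed, Usp2 1375549_at and Bhlhe41, which did not pass without a covariate. Nfil3 and Usp2 1387703_a_at did not pass with that list. Array-wide, 173 probe sets passed, 59 with the replicate block, 346, 264 and 10 with the myelin, microglial and corticosteroid lists as covariates, and 100 to 180 with 1 array left out (100 without ethanol rat 7 and 102 without ethanol rat 8). With 1 array left out, 2 or 3 member probe sets passed. Nothing is read from any of these member counts, because the members were chosen with the comparison known. The animal numbers are not taken as pairs: deviations of same-numbered rats correlated from -0.42 to 0.30, and 1 of 7 ethanol rats matched its own number best. Of 4 marker list correlations past the threshold, 0 passed without the 2 farthest rats, in ethanol rats alone and in water rats alone, and 0 to 5 passed with 1 rat left out (0 without water rat 5, 2 without ethanol rat 6 or water rat 1, 2, 6 or 7). Among the named correlations with clock genes, those of Bhlhe40 and Bhlhe41 with Btrc changed sign in ethanol rats alone, to -0.04 and 0.04. With the first principal component removed, Bhlhe40 with Bhlhe41 went from r = -0.55 to -0.13. Tef with Bhlhe40 went from 0.37 to 0.66 and Hlf with Bhlhe41 from -0.04 to -0.55. After adjustment 0 of the 21 member pairs passed in that setting. For correlations, the alternative by animal number used the ethanol minus water differences of the 7 numbers found in both groups, without water rat 3. Dbp with Hlf, at r = 0.02, was -0.76 over these 7 differences (p = 0.0385 by permutation of the differences, adjusted 0.320). Member differences moved by less than the within-group SD in 288 cases and by more in 7, all of them covariate fits added after seeing the data, among them Bhlhe41 and Tef 1385374_at with a changed sign under the microglial list (-0.06 and -0.10). Of the 14 list genes called, 14 kept their direction under every alternative that gave a value, and 11 missed the threshold with the replicate block, 4 without a filter, 1 (Nr1d1) with median centring and 8, 7 and 13 with the myelin, microglial and corticosteroid lists as covariates. Each list mean includes the called genes of that list, and the corticosteroid mean also includes Sgk1. Such genes are partly fitted against themselves, so part of their change is built into these fits. Among named list genes that did not pass, the sign changed for Por with the replicate block (0.01), with the microglial (0.02) and corticosteroid (0.01) lists and with 1 rat left out (-0.02 to 0.01). It also changed with the microglial list for Alas1 (0.11), Usp4 (0.09) and Slc6a3 (-0.03), with the corticosteroid list for Bcl6 (0.04), Sgk1 (0.13), Usp7 (-0.03), Cebpd (0.05) and Clock (0.05), and with the myelin list for Clock (0.03) and Usp7 (-0.00). The cause was not tested.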

Other observations

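Dispersion between rats differed among members in a way the group means do not show. Bhlhe40 and Dbp had smaller SDs in ethanol than in water rats (ratios 0.234 and 0.431, with 0.483% and 7.34% of tested probe sets below them), and Tef 1369919_at had a larger one (ratio 2.60, with 99.1% of tested probe sets below it). The other 2 Tef probe sets had ratios of 0.969 and 0.983. These values were picked out after they were seen and were not tested. Usp2 1387703_a_at had the widest within-group spread of the members, with a pooled SD of 0.20 and 90.2% of tested probe sets below it. No array stood far from the rest of its group in any of the 24 sets of values tested for outliers, 12 probe sets in 2 groups.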
